A study of Homo sapiens with 4 samples.

Results

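The clustered histone genes form a compact set of short transcripts, and most of those that the YBX1 immunoprecipitation lists name lay wholly beneath a peak in both replicates. Members were every listed gene whose symbol begins with HIST1H, HIST2H, HIST3H or HIST4H. They numbered 43 of the 14483 gene symbols that either list names, 42 of 11460 in replicate 1 and 38 of 10863 in replicate 2. As unique positions they were 33 of 27669 peaks in replicate 1 and 28 of 25492 in replicate 2. Of the 43 genes, 42 are protein-coding in the RefSeq table and 1, HIST2H2BC, is a transcribed pseudogene. The same table holds 90 genes under the symbol rule, 71 of them protein-coding, so 29 protein-coding members were named in neither list.

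The study sequenced RNA recovered with YBX1 from PANC-1, a long-established line of human pancreatic cancer cells, all of which had first received extracellular vesicles of CAFs, the usual abbreviation for cancer-associated fibroblasts. Its 4 samples are 2 immunoprecipitates (IP) made with a YBX1 antibody and 2 inputs made with none. The labels give ultraviolet crosslinking, sonication, RNase I, a DNase step and a DNA library kit, and they name total RNA with no poly(A) selection. No cells without vesicles and no control antibody were analysed here, and the labels leave unsaid whether replicates were separate cultures. Each deposited list sets 1 IP against the input of its own number on hg19, and there is no test over samples in what follows. Of 7 genes chosen as markers of such a line, 5 held a shared peak, meaning 1 with at least 1 bp in common with a peak of the second list, beside 16.7% of RefSeq genes and 34.9% of listed symbols. They were the epithelial genes KRT7, KRT8, KRT18 and CDH1, and VIM, a mesenchymal gene that fibroblasts also express. KRT19 and EPCAM, the rest of that list, held none. None of the 7 acinar or 3 islet genes was named, and of 9 fibroblast genes 3 were named in replicate 1 and 1 in replicate 2. Of 4 immune genes 1 was named, in replicate 2, and no gene of the fibroblast or immune list held a shared peak. Peaks over input are not expression levels, so the marker lists only say which genes are named.

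Replication-dependent histone genes are intronless and are transcribed mainly while DNA is copied. Their messenger RNAs end in a conserved stem-loop, bound by SLBP, in place of a poly(A) tail, and most lie in clusters on chromosomes 6 and 1 where H2A and H2B genes often stand head to head and share a promoter. H2A, H2B, H3 and H4 make up the nucleosome core, and H1 binds the linker DNA. YBX1 binds RNA through a cold-shock domain and neighbouring regions, and its name comes from the Y-box, an inverted CCAAT motif in promoters.

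The promoters of the members with the most reads are shown because the lists call nearly all of these peaks promoter peaks. At spanned pairs the stretch between head-to-head genes also lies inside the peak. HIST1H1C is in no such pair. Its replicate 1 peak ended at hg19 position 26056740, shortly before the listed start at 26056699 in the direction of transcription, so most of its 250 bases lay outside that peak. The replicate 2 peak ran on to 26057141. Each line gives the 250 bases before the RefSeq transcription start, on assembly GRCh38.p14, written 5′ to 3′ on the gene's own strand. Capitals mark 3 motifs, each searched on both strands. The first is CCAAT, which reads ATTGG when it lies on the other strand. The second is the TATA box, TATAAA, which then reads TTTATA. The third, known as the octamer, is ATTTGCAT and on the other strand it reads ATGCAAAT. HIST1H2AC lies on the plus strand (chr6:26123922-26124171), HIST1H1C on the minus strand (chr6:26056471-26056720), HIST2H2AC on the plus strand (chr1:149886668-149886917), HIST1H2AG on the plus strand (chr6:27132793-27133042) and HIST2H2AA3 on the minus strand (chr1:149842751-149843000).
HIST1H2AC: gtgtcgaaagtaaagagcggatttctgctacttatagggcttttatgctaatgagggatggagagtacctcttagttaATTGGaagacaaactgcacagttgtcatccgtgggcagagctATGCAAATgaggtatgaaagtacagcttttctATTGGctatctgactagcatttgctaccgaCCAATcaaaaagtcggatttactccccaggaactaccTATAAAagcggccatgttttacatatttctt
HIST1H1C: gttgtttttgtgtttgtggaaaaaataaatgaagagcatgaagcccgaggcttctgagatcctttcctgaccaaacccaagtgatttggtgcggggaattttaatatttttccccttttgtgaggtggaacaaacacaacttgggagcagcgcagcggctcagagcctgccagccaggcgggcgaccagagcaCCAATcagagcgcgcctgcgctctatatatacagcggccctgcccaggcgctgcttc
HIST2H2AC: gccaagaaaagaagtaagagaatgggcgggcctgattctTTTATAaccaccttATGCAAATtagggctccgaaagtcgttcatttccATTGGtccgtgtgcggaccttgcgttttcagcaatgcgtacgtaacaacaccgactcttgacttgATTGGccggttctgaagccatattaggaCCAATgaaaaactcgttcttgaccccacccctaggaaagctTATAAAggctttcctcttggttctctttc
HIST1H2AG: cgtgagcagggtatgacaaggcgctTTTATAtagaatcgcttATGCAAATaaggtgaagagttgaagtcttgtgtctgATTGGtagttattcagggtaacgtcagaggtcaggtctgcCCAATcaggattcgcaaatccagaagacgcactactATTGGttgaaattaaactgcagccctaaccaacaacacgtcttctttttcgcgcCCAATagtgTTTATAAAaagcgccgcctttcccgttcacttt
HIST2H2AA3: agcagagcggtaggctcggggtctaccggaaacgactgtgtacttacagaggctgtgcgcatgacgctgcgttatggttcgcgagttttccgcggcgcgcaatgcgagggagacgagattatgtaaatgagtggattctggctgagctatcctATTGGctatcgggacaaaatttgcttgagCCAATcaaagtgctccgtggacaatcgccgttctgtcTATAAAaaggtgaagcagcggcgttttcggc
The 300-base RefSeq windows of HIST2H2AA3 and its copy HIST2H2AA4, which run 50 bases past the start, were identical over 299 of 299 aligned bases once moved by 1 base, so only 1 is printed. HIST1H2AC and HIST2H2AC each held 1 CCAAT and 2 ATTGG, HIST1H2AG held 2 of each, HIST2H2AA3 held 1 of each, and HIST1H1C held 1 CCAAT. In HIST1H2AG a TTTATA and a TATAAA overlap and form 1 run of capitals.

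Over the table's 27305 genes, taking the first 300-base window of each, 35.7% held CCAAT on either strand, 11.95% held TATAAA and 1.80% held the octamer. Of 66 protein-coding histone genes with a window, 84.85% held CCAAT, 66.67% TATAAA and 39.39% the octamer. All 32 of those with a peak over them in both lists held CCAAT, but so did every window of the H1 (6), H2A (16), H2B (18) and H3 (13) families whether or not a peak lay there. In the H4 family 3 of 13 windows held it. The octamer was found in 11 H2A, 14 H2B and 1 H3 window and in no H1 or H4 window. The windows of head-to-head genes overlap and both strands were searched, so 1 match can count for both genes. The copies HIST2H2AA3 and HIST2H2AA4 also count as separate windows. A match is a description of these letters and not a binding site.

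The families differed in how many of their genes were found to have a peak over them. By the transcript starts and ends that the lists themselves give, a peak overlapped 35 of the 43 genes in both lists, and 32 were covered from start to end in both. Over all symbols named in either list, 46.7% had a peak over their bounds in both and 0.725% were covered whole in both. The members are short, with transcripts from 371 to 2511 bp and a median of 474 bp, and the part of length in these shares was examined only against other short genes. Among 87 other listed genes with a curated coding transcript of 1000 bp or less, 5.75% had a peak over them in both lists and 2.3% were covered whole in both. Among protein-coding genes of the reference, a peak was found over the gene in both lists for 15 of 18 H2B genes, 13 of 17 H2A genes, 4 of 15 H3 genes, 2 of 6 H1 genes and none of 15 H4 genes. Among those that either list names, the counts were 15 of 15 H2B, 13 of 15 H2A, 4 of 6 H3, 2 of 4 H1 and 0 of 2 H4 genes. These family counts are descriptions, and the hg19 bounds of the 29 protein-coding members that neither list names were not used here, so whether a peak lay over them without naming them was not examined.

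**Figure D1:**
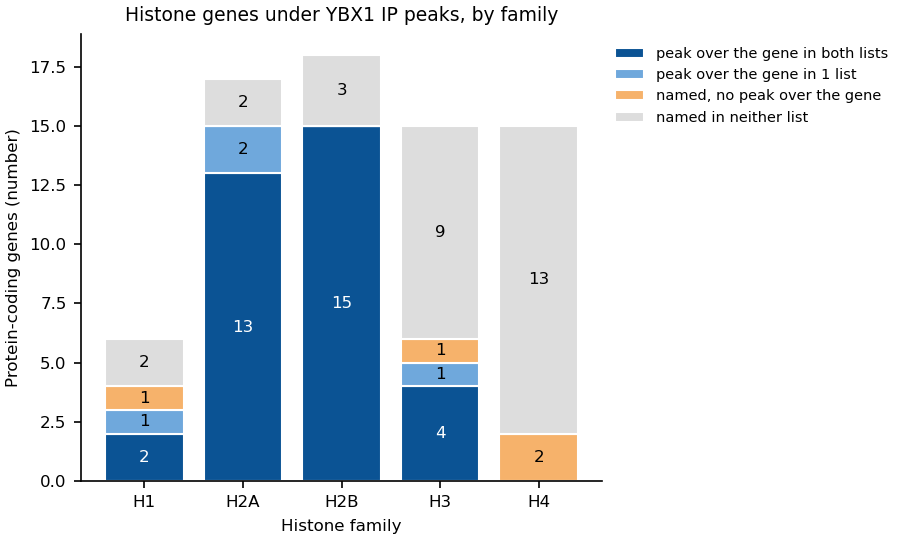
Protein-coding histone genes of the RefSeq table (vertical axis, number) by family, split by whether a YBX1 IP peak overlapped their listed transcript bounds in both lists, in 1 list, in neither although named, or were not named. H2B (15 of 18) and H2A (13 of 17) fill most of their bars, while 13 of 15 H4 genes were not named, and their bounds were not compared with the peaks, and the 2 that were named had no peak over them.

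The replicates placed peaks at most of the same histone loci. In replicate 1, 24 of the 33 histone peaks were shared (72.7%; 95% Wilson interval 55.8% to 84.9%, counting error only), beside 31.6% of all peaks in that list. In replicate 2, 24 of the 28 were shared (85.7%; 68.5% to 94.3%), beside 34.7% of all. Peaks with many reads were shared more often throughout the lists: at 1000 reads or more the shares were 76.1% of 2001 peaks in replicate 1 and 91.2% of 544 in replicate 2, against 18 of 20 and 17 of 17 histone peaks. Both lists named 37 of the 43 genes, and these 37 held a shared peak. Over RefSeq genes with a curated transcript 25.8% were named in both and 16.7% held a shared peak, and over symbols of either list 54.1% and 34.9%.

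Histone peaks held many reads at moderate enrichment. Tag counts are the IP reads inside a peak, not scaled to library size, and the fold is the authors' own ratio of IP to input from their peak caller. The median histone peak held 1428 reads in replicate 1, where the median of all peaks was 45, and 1443 in replicate 2, where it was 15. The 10% of peaks with the most reads, at least 671 in replicate 1 and 196 in replicate 2, took in 24 of the 33 and 21 of the 28 histone peaks. The median fold ran the other way: 8.48 in replicate 1, beside 9.33 for all peaks, and 16.49 in replicate 2, beside 25.31. Of the histone peaks, 22 of 33 and 21 of 28 lay below the median fold of their list. Among peaks of 1000 reads or more the order of the medians turned, with 9.01 for histone peaks and 5.69 for all in replicate 1, and 19.14 and 10.77 in replicate 2. False discovery rates given by the authors ran from 17.47% to 21.47% at the histone peaks of replicate 1. They ran from 29.37% to 100% at those of replicate 2, where 5 of 28 stood at 100%. Over all peaks of replicate 2, 14262 of 25492 stood at 100% and the lowest rate was 28.11%. The rate did not simply follow reads: the replicate 2 histone peak with the most reads, at HIST1H2BC and HIST1H2AC, stood at 60.78%.

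Among the linker histones, whose H1 proteins bind DNA between nucleosomes, HIST1H1C stood out by its reads and HIST1H1D had the lowest fold of the shared set. HIST1H1C encodes a somatic H1 subtype, and its peak (hg19 chr6:26055859-26056740 in replicate 1) held 6029 reads at fold 6.93 in replicate 1 and 2627 reads at fold 11.13 in replicate 2. At 6836 reads per kb it was the densest histone peak of replicate 1, against 2057 per kb in replicate 2, where the peak was 1277 bp long instead of 882 bp. The summits of the pair lay 1 bp apart, inside the gene. HIST1H1D, another somatic H1 gene, was covered whole in both lists by peaks of 1084 reads at fold 3.42 and 1093 reads at fold 5.96. The latter had a false discovery rate of 100%, as did most peaks of replicate 2. HIST1H1E was covered whole in replicate 1 alone, by 1837 reads at fold 3.35, and the nearest replicate 2 peak lay 929 bp away. HIST1H1A was named in replicate 1 through an intergenic peak of 28 reads, and the nearest peak of that list lay 13606 bp from the gene.

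H2A and H2B genes carried most of the signal, and they did so as pairs. The listed starts gave 12 head-to-head pairs of an H2A and an H2B gene, with 222 to 321 bp between the starts (median 265 bp). In each list 1 peak spanned both starts at 11 of the 12 pairs, and at 9 of these the peak covered both genes whole in both lists. The annotation therefore gives both genes of a pair the same reads and fold, and the lists cannot say how the reads divide between them. Peak summits lay in the body of 1 of the genes at all 11 pairs in both lists and never in the stretch between the starts. In replicate 1 the summit was in the H2A gene at 6 pairs and in the H2B gene at 5, and in replicate 2 at 3 and 8. The summit fell in the same gene in both lists at 8 of 11 pairs. The 11 pair peaks ran from 1263 to 2938 bp in replicate 1 and from 1387 to 2343 bp in replicate 2, and held medians of 3643 and 3065 reads at median folds of 10.43 and 21.01.

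**Figure D2:**
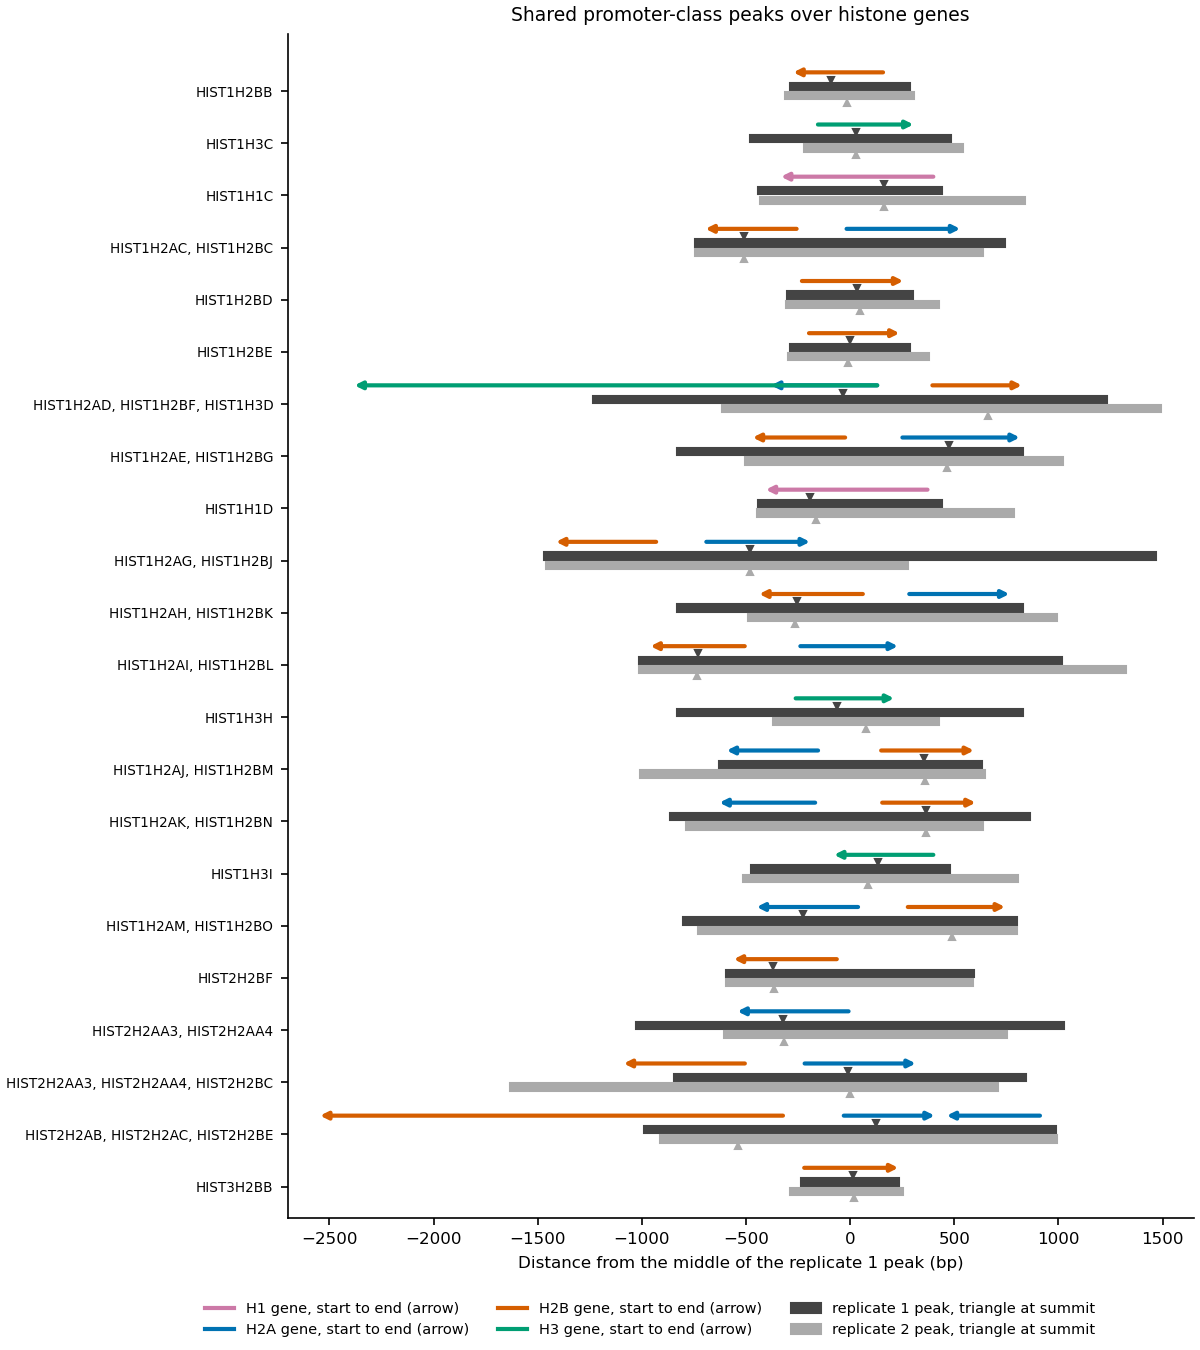
Extent of the 22 shared promoter-class peaks that lie over histone genes, each row aligned on the middle of its replicate 1 peak (horizontal axis, bp), with the replicate 1 peak in dark grey, the replicate 2 peak in light grey, triangles at the summits and arrows for the shortest listed transcript of each gene from start to end. At 11 loci a peak spans a head-to-head H2A and H2B pair, and every pair summit sits under a gene arrow.

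The pair HIST1H2BC and HIST1H2AC on chromosome 6 held the most reads of any histone locus in both lists. Its peak (hg19 chr6:26123643-26125135) held 7988 reads at fold 13.47 in replicate 1 and 4611 at fold 27.25 in replicate 2, the highest fold of a shared histone peak in that list. Both summits were at the same base, inside HIST1H2BC. The HIST2H2BE, HIST2H2AC and HIST2H2AB locus on chromosome 1 (hg19 chr1:149857567-149859542) came next among the core histones, with 5728 reads at fold 11.21 and 4500 reads at fold 21.01. HIST2H2BE has a listed transcript of 2224 bp, and the peaks covered 29.95% and 26.62% of it from its start, while both H2A genes were covered whole. The summit lay in HIST2H2AC in replicate 1 and 665 bp away in HIST2H2BE in replicate 2.

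The copies HIST2H2AA3 and HIST2H2AA4, which encode the same H2A protein, had the highest folds in replicate 1. The lists place both symbols at each of their loci, so reads cannot be divided between the copies, and whether reads that map to several places were kept is not known here. At hg19 chr1:149813298-149815353 the peak held 4899 reads at fold 19.41 in replicate 1 and 3019 at fold 25.9 in replicate 2. At the other copy, beside the pseudogene HIST2H2BC (chr1:149821999-149823692), it held 4794 reads at fold 17.09 and 3065 reads at fold 19.49. The pseudogene was covered over 58.66% of its length in replicate 1 and whole in replicate 2. Reads and folds at the copies differed little in replicate 1. In replicate 2 the reads were close, but the peak beside the pseudogene was longer, with 1308 reads per kb against 2223.

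The other chromosome 6 pairs held fewer reads than the HIST1H2BC pair in both lists. HIST1H2AG and HIST1H2BJ held 5401 reads at fold 12.02 in replicate 1 and 3250 at fold 15.43 in replicate 2. The replicate 1 rows name HIST1H2AG alone for that peak, although it covers HIST1H2BJ whole, which is why HIST1H2BJ is named in replicate 2 only. HIST1H2BK and HIST1H2AH held 4393 reads at fold 6.26 and 2807 at fold 9.91, the lowest folds of any pair in either list. HIST1H2AM and HIST1H2BO held 3643 reads at fold 10.43 and 3086 at fold 24.97, with summits 713 bp apart in different genes of the pair. At the HIST1H2AD and HIST1H2BF pair, 3409 reads at fold 8.87 and 2694 at fold 19.14 were counted. The long HIST1H3D transcript (2511 bp) has the same listed start as HIST1H2AD and runs through it, so the H3 and H2A genes cannot be told apart where they overlap. Replicate 1 alone had a further peak of 426 reads at fold 7.41 in the later part of HIST1H3D, beyond the end of HIST1H2AD, which the lists name for HIST1H2AE and HIST1H2BF.

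At the next 4 pairs the fold was again higher in replicate 2. HIST1H2AJ and HIST1H2BM held 2973 reads at fold 7.6 and 3181 at fold 24.16, a fold ratio of 3.18 that was the widest among shared histone peaks. HIST1H2AK and HIST1H2BN held 1428 reads at fold 9.25 and 1331 at fold 25.54. HIST1H2BG and HIST1H2AE held 2926 reads at fold 9.15 and 2061 at fold 12.87. Reads were lower in replicate 2 at the second and the third of these pairs and higher at the first. HIST1H2BL and HIST1H2AI held 2381 reads at fold 12.41 and 1682 at fold 23.47, and the lists attach HIST1H3H to that peak as well, though a separate peak covers it. The pair that no peak spanned was HIST3H2A and HIST3H2BB, the small chromosome 1 cluster, where HIST3H2BB was covered whole by 144 reads at fold 8.15 and 174 reads at fold 11.06. HIST3H2A was overlapped in replicate 1 alone, over 92.35% of its length, by a separate peak of 102 reads at fold 4.74, and the nearest replicate 2 peak lay 178 bp from it.

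Single H2B genes were covered by narrow peaks. HIST1H2BD held 3077 reads at fold 6.5 in replicate 1 and 1875 at fold 11.31 in replicate 2, in peaks of 608 and 736 bp. HIST1H2BE held 1841 reads at fold 7.59 and 1555 at fold 16.31, and HIST1H2BB held 1457 reads at fold 6 and 1029 at fold 6.3. HIST2H2BF had longer peaks with fewer reads, with 753 reads at fold 8.48 and 976 at fold 16.68 in peaks of 1189 bp. Those peaks also name HIST2H3D, but they ended 192 and 195 bp short of it. A weaker peak named for HIST1H2BE, with 267 reads at fold 9.52 and 34 at fold 14.46, lay in the tail of the longer HIST1H2BD transcript. HIST1H2AL, a single H2A gene, was covered whole in replicate 1 alone, by 315 reads at fold 3.48.

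Before allowing for peak length, peaks over H3 genes alone held fewer reads than those over any spanned pair. HIST1H3C was covered whole by 1316 reads at fold 11.59 in replicate 1 and 697 at fold 9.95 in replicate 2, and was the only shared peak over a histone gene whose fold was lower in replicate 2. HIST1H3H was covered by 830 reads at fold 6.85 and 491 at fold 8.62, and HIST1H3I by 812 reads at fold 6.22 and 402 at fold 10.15. The replicate 2 peaks of HIST1H3H and HIST1H3I had a false discovery rate of 100%, as did most peaks of that list. The 3 H3 peaks held at most 1316 and 697 reads, below the lowest pair value of 1428 and 1331 in the same list. Per kb of peak the ranges overlapped. The H3 peaks held 500 to 1362 reads per kb in replicate 1 and 304.1 to 911.1 in replicate 2. The pair peaks held 825 to 5350 and 717.9 to 3324. HIST1H3B was covered whole in replicate 1 alone by 1403 reads at fold 3.55, and the nearest replicate 2 peak was 11125 bp away.

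No peak lay over an H4 gene that the lists name. HIST1H4H, named in both lists, had its nearest peak 36938 bp away in replicate 1 and 5239 bp away in replicate 2, and the shared peak named for it held 34 and 36 reads in intergenic sequence. HIST1H4I was named in replicate 1 by a peak of 806 reads at fold 8.63 that ended 533 bp before its start and overlapped the longer HIST1H2BK transcript. The replicate 1 peaks at HIST1H1E, HIST1H3B and HIST1H2AL, with HIST1H1D, had the 4 lowest folds among the peaks over histone genes in that list, from 3.35 to 3.55. Of these, HIST1H1D alone was shared. The 4 histone peaks that replicate 2 did not share held 6 to 11 reads each at folds of 25.31 to 37.5, and none lay over a histone gene.

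**Figure D3:**
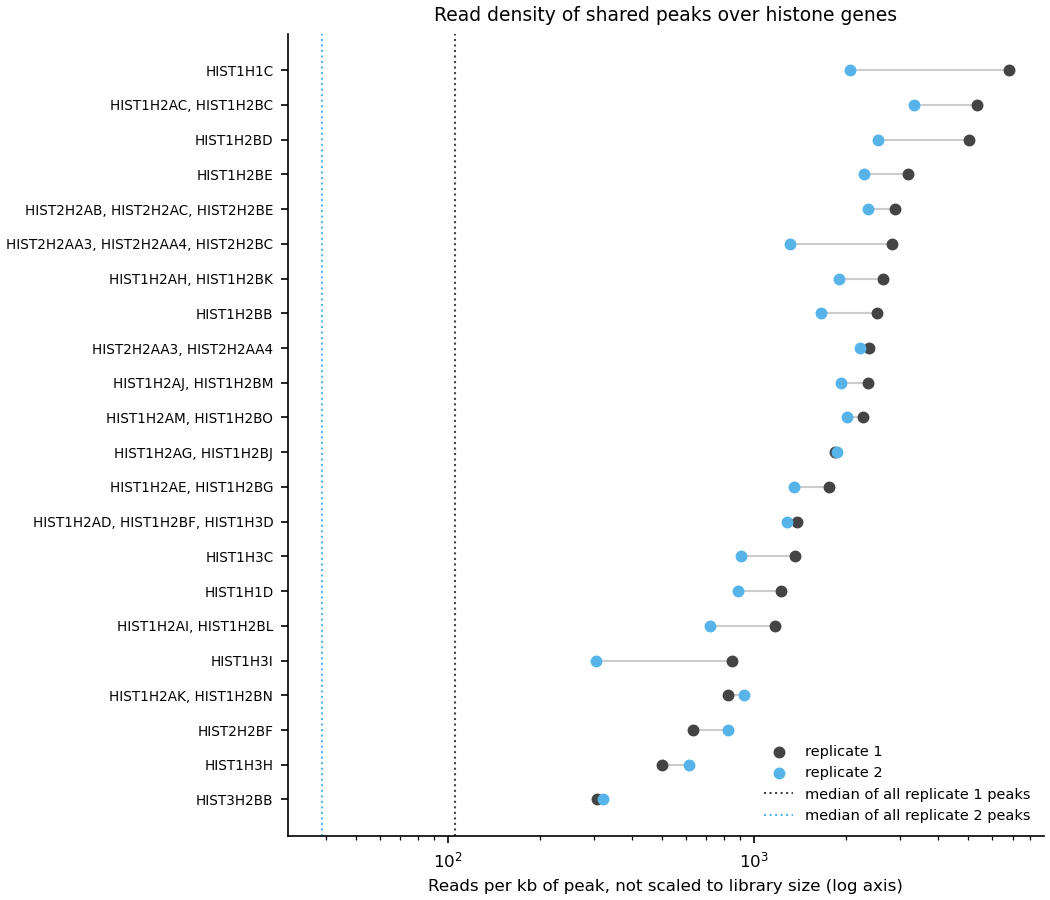
Reads per kb of peak (horizontal log axis, not scaled to library size) at the 22 shared promoter-class peaks over histone genes, replicate 1 in black and replicate 2 in blue, with dotted lines at the medians of all peaks. Every histone point lies to the right of its line, 105.9 in replicate 1 and 38.91 in replicate 2, from 306.4 at HIST3H2BB to 6836 at HIST1H1C in replicate 1.

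Per kb of peak, which allows for their different lengths, the 22 shared promoter-class peaks over histone genes held 306.4 to 6836 reads in replicate 1 (median 2055) and 304.1 to 3324 in replicate 2 (median 1506). The medians over all peaks were 105.9 and 38.91. Pairs and single H2B genes were similar on this scale, with medians of 2273 and 2516 in replicate 1 and 1867 and 1662 in replicate 2, while the 3 H3 peaks had medians of 849.4 and 613. The order by reads was kept better between lists than the order by fold. Over the 24 shared histone peaks Spearman's rho was 0.929 for reads and 0.608 for fold, and over all 8734 shared peaks 0.878 and 0.441. These coefficients describe peaks of the same 2 pairs of libraries, which also share the abundance of each RNA, and carry no test.

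**Figure D4:**
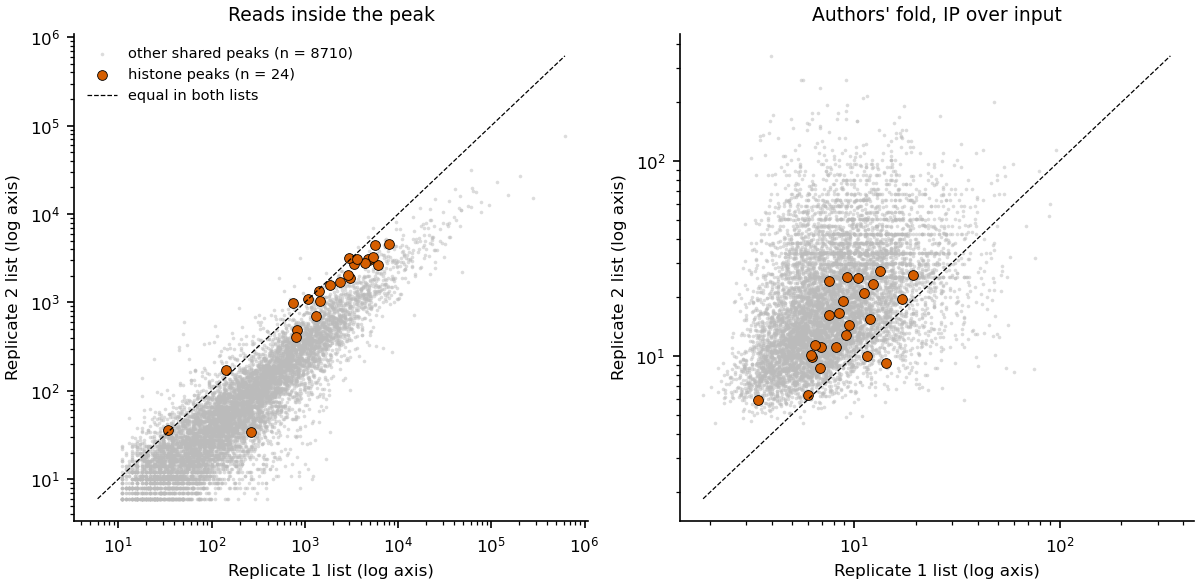
Reads inside each shared peak (left) and the authors' fold of IP over input (right), replicate 1 against replicate 2 on log axes, with the 24 histone peaks in orange, the other shared peaks in grey and a dashed line where both lists are equal. Most histone peaks lie at the upper edge of the grey cloud for reads, 5 of them above the line, and inside the cloud for fold.

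Unscaled reads fell less from replicate 1 to replicate 2 at histone peaks than at shared peaks as a whole. The ratio of replicate 2 to replicate 1 reads had a median of 0.705 over the 24 histone peaks and 0.331 over all shared peaks, and reads were lower in replicate 2 at 19 of 24 histone peaks and at 95.1% of all. The fold was higher in replicate 2 at 22 of 24 histone peaks and at 92.3% of all, with median ratios of 1.62 and 2.22. The ratios were not tested, and library size, which would move all read ratios alike, was not used here. Which set of peaks is nearer to equal after scaling is therefore not known. Summits lay a median of 12 bp apart at histone peaks and 28 bp apart over all shared peaks, and within 50 bp of each other at 18 of 24 and at 61.5%. Where the summit fell inside a histone gene, it lay at a median of 45.96% of the way from start to end in replicate 1 (27 peaks) and 48.71% in replicate 2 (22 peaks).

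Histone peaks often took in several genes. More than 1 gene symbol was named by 19 of 33 histone peaks in replicate 1 and 16 of 28 in replicate 2, against 7.38% and 6.06% of all peaks. Peaks that covered a named transcript whole were 25 of 33 and 22 of 28, against 0.643% and 0.514% of all. Promoter-class peaks were 27 of 33 and 22 of 28, against 15.1% and 13.6%, and no histone peak had the exon or intron class. That class covers peaks within 2000 bp of a start, which takes in the whole of a gene of the members' median length, 474 bp. At these genes the promoter class therefore does not separate promoter from transcript.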

How the data were processed

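RNA recovered with YBX1 and matched inputs were sequenced in 2 replicates. The submitters' processing notes name cutadapt 1.9.1, Bowtie2 2.2.4 and hg19; the caller of the peaks was not given in the sources used here. Replicates were not pooled. The authors deposited, per the file headers, each peak's tag count (unscaled IP reads inside it), its fold or ratio of IP over input, a significance score (10 times the negative log10 of p), a false discovery rate in percent, and RefSeq transcript starts and ends. These per-peak values are the authors' own. Total library depths were not used here, so reads per peak give only counting precision.

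Rows were collapsed to unique positions with Python 3.11.15, pandas 2.3.3, NumPy 2.4.6 and SciPy 1.17.1. Peaks were shared if they overlapped by 1 bp or more, a step that was tested on simulated data. Overlap with a gene used the listed bounds of any of its transcripts; symbols were matched by accession to RefSeq (GRCh38.p14) for 43 of 43, which gave gene types and promoters only. The reads of near-identical histone genes, and of overlapping genes, may be divided wrongly. Every gene named in both lists is named, with genes of 1 list and, for other lists, at most 6 genes by the smaller fold. Promoters are of the 4 loci with most replicate 1 reads, 1 gene a locus, a departure from ranking single genes, plus the HIST2H2AA3 copies. Members, gene lists and summaries were chosen with earlier results of these data known. Alternatives were stricter score and fold limits, 50% overlap, single-gene peaks, peaks over gene bounds, annotation class, protein-coding members, single replicates and, added after seeing the data, the false discovery rate.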

Additional observations from a re-analysis of the deposited data

How the results depend on the processing

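Of 92 recomputed values, 70 stayed within 1.5 times the count or within the spread of the reported value, 22 moved and 0 reversed direction. None could reverse, because all 92 are counts, percentages or medians without a sign. The order of median folds between histone peaks and all peaks, which turned among peaks of 1000 reads or more, was not among them. Some of the 70 could not move. Every replicate 1 peak scored at least 119.5, above a −log10 p of 5, and none had a false discovery rate of 100%. Every replicate 2 peak had a fold of at least 4.1. Those limits therefore left that list's own counts and medians as they were, and counts and medians for a single replicate only repeat its list. Keeping only peaks that name 1 gene symbol moved most: histone peaks fell from 33 to 14 and from 28 to 12, genes named in both lists and genes with a shared peak each from 37 to 7, genes overlapped in both from 35 to 6, the replicate 2 shared percentage to 66.67, and median reads to 821 and 446.5. That setting removes, by construction, each pair whose peak names both genes. A score of 200 or more left 16 replicate 2 peaks, 100% of them shared, and median reads of 1841 and 2750. With a −log10 p of 5 or more, replicate 2 sharing was 95.45% and its median 1968 reads. Peaks over gene bounds gave 100% and medians of 1647 and 1875, and leaving out intergenic and upstream peaks gave 100% and medians of 1841 and 1968. The share over all peaks was not recomputed at these settings, so these percentages are not a result about histone peaks. Sharing rose with reads throughout the lists, to 91.2% of all replicate 2 peaks of 1000 reads or more. A fold of 4 or more gave a replicate 1 median of 1649 reads, and leaving out peaks at a false discovery rate of 100%, chosen after seeing the data, gave 1875 in replicate 2. With a 50% overlap, and with protein-coding members only, each result recomputed stayed within those bounds. Each list alone named 38 to 42 genes and overlapped 35 to 39. No paired analysis was possible because each list already compares 1 IP with the input of its own number, and the results come from no test. Any error over samples would rest on 2 folds that the caller scaled separately, and none is given.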

Other observations

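Genes that make, process or handle histones were also examined, from lists chosen with earlier results of these data known. Of 38 genes for histone messenger RNA processing, transcription and decay, 11 held a shared peak (28.95%), beside 16.7% of RefSeq genes and 34.9% of the symbols in either list. Values for genes of these lists, here and in the next paragraph, go by each gene's highest fold in each list. The values from the 2 lists need not come from overlapping peaks. SRRT (ARS2), a cap-binding complex partner, had the highest smaller fold of the 11, with 76.11 and 31.62 at 106 and 45 reads. Its class was exon in replicate 1 and intron in replicate 2. NPAT, the coactivator of histone gene transcription, followed with folds of 17.86 and 17.05 at 40 and 19 reads. MIF4GD, an SLBP partner, came after it with 11.49 and 25.31 at 16 and 12 reads, in upstream-class peaks in both lists. That class reaches up to 20000 bp before a start, so such a peak may lie outside the gene that it names. SLBP itself, which binds the histone stem-loop and is named for that role though it ranks outside the first 6 by fold, had folds of 7.32 and 21.16 at 31 and 81 reads in upstream-class peaks. Reads over the 11 were uneven: SNRPD3, a core small nuclear ribonucleoprotein subunit, held 1950 and 577 in upstream-class peaks, beside histone medians of 1428 and 1443.

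Among 17 histone variant genes that are expressed outside DNA replication, 2 held a shared peak (11.76%), beside 16.7% of RefSeq genes and 34.9% of symbols in either list. With 17 genes this share is too coarse to be told apart from that of RefSeq genes. H2AFX, the variant phosphorylated at DNA breaks, had promoter-class peaks of 2095 reads at fold 9.67 and 1129 at fold 13.86, against 102 to 7988 and 1331 to 4611 reads over the clustered H2A genes. H2AFJ had 846 reads at fold 8.73 and 159 at fold 9.96. Of 25 histone chaperones and partners, 9 held a shared peak (36%), beside 16.7% of RefSeq genes and 34.9% of symbols in either list. That share is near the one over listed symbols. The highest smaller folds were those of CABIN1, with folds of 24.98 and 33.75 at only 72 and 15 reads, NAP1L4, with 14.67 and 18.5 at 166 and 87, and HIRA, with 14.23 and 39.62 at 299 and 49.

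Peaks of other genes inside the chromosome 6 cluster held far fewer reads than histone peaks, with medians near those of all peaks. Between its outermost listed histone genes, 34 peaks of replicate 1 and 19 of replicate 2 named no histone gene, among them peaks at butyrophilin genes such as BTN2A1 and BTN3A1 and zinc finger genes such as ZNF184 and ZNF391. They held a median of 54 reads in replicate 1 and 12 in replicate 2, beside 45 and 15 for all peaks, with at most 1592 and 423. Of the 34 and the 19, 7 and 8 were shared, beside 31.6% and 34.7% of all peaks. Within the HIST2 and HIST3 spans on chromosome 1 every peak named a histone gene.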
